A study of Mus musculus with 28 samples.

Results

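The genes that build cholesterol and fatty acids were followed in mouse dorsal skin at 10 and 15 days after birth (P10 and P15), in control animals and in animals that lack Gab1 in keratinocytes. Of 29 genes named for these pathways, 17 belong to the sterol branch and 12 to the fatty acid branch. A gene was a member where a probe on the array carried its symbol in the platform annotation, or an older symbol with the same gene ID (Msmo1 is listed as Sc4mol). Probes were found for 26 members (38 probes), and 25 members had at least 1 probe with a detection p below 0.01 on 6 or more of the 28 arrays. These 25, 15 sterol and 10 fatty acid genes, are described below and were tested among 9045 genes in all. The only probe for the fatty acid synthase gene, Fasn, was detected on 2 arrays and was not tested. Mvk, Fdft1 and Acacb had no probe and were not analysed here. The probe used was detected on every array for 19 of the 25 members, the exceptions being Idi1 (12 arrays), Idi2 (22), Sc5d (22), Gpam (10), Srebf1 (25) and Scd2 (25).

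All animals were of a mixed C57/BL6;129Ola strain. Mutants carried K14-cre, in which the keratin 14 promoter drives Cre in basal cells of the epidermis and its appendages, and the conditional allele Gab1fl. Fat, muscle and dermal cells of the same skin therefore keep Gab1, an adaptor protein that passes signals from growth factor receptors on to ERK. The labels give the control genotype only as control and do not say whether arrays of a group hold separate animals. The p-values below rest on the spread between arrays, which may be technical. The groups were 10 P10 control, 6 P10 mutant, 6 P15 control and 6 P15 mutant arrays on 4 slides of Illumina BeadChips, whose signals are mean brightnesses of many beads per probe. Slides 1 and 2 held the P10 mutants with 6 P10 controls. Slides 3 and 4 held the P15 arrays with the other 4 P10 controls. On every slide the mutants lay at the first positions and controls of the same age at the next, so that position on the slide and genotype cannot be told apart. Between 8836 and 13610 probes were detected per array, and median raw signals lay between 53.2 and 172, with the 8836 and the 172 both in P15 mutant 5. The probe for Gab1 itself was lower in mutants by 1.31 on the log2 scale at P10 (limma adjusted p = 1.48e-08) and by 1.33 at P15 (adjusted p = 2.2e-09), with no overlap between genotypes. Summed signals of keratinocyte markers lay between 15.83 and 16.57 and those of hair shaft markers between 15.89 and 16.32 (log2) on all arrays. Keratinocyte sums were at most 16.20 in P10 controls and 16.23 in P10 mutants, and at least 16.25 in P15 controls and 16.24 in P15 mutants. Hair shaft sums lay between 15.89 and 16.15 in P15 mutants and between 16.16 and 16.32 in P15 controls, without overlap. No measured marker of either list was undetected throughout a group.

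Cells make cholesterol from acetyl-CoA through the mevalonate pathway, which yields isopentenyl units, farnesyl diphosphate, squalene, lanosterol and finally cholesterol. Fatty acids are built from the same precursor by acetyl-CoA carboxylase and fatty acid synthase and are then elongated and desaturated. Both branches are switched on by the SREBP transcription factors, of which SREBP-2 (gene Srebf2) mainly drives sterol genes and SREBP-1 (gene Srebf1) mainly fatty acid genes. When sterols are plentiful, the INSIG proteins hold the SREBP precursors in the endoplasmic reticulum, and Insig1 is itself a target of SREBP. In skin these lipids are made by keratinocytes, which release cholesterol and fatty acids into the barrier, by sebaceous glands and by dermal fat.

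SREBPs bind sterol response elements and often act beside NF-Y, at CCAAT boxes, and Sp1, at GC boxes. RefSeq promoter windows of 300 bases on the mouse assembly GRCm38.p6, from 250 bases before to 50 bases after a transcription start, were available for 20 of the 25 tested members. The windows below were chosen because the results turn on Insig1 and Idi2, because Idi1 is the neighbouring copy of Idi2, and because Hmgcs1 was the sterol member with a match to the sterol response element searched. Capitals mark any match, on either strand, to TCACNCCAC (sterol response element), CCAAT (NF-Y box), GGGCGG (GC box) or CACGTG (E-box). All 4 lie on the plus strand, Insig1 at chr5:28071162-28071461, Hmgcs1 at chr13:119690101-119690400, Idi1 at chr13:8885356-8885655 and Idi2 at chr13:8952613-8952912.
Insig1: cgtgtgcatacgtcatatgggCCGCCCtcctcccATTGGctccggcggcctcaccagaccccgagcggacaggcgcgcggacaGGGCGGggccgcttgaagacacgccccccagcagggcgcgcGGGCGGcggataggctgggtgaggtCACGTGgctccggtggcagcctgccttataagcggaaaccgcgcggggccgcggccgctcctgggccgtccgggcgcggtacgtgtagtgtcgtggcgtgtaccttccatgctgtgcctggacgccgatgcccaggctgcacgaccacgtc
Hmgcs1: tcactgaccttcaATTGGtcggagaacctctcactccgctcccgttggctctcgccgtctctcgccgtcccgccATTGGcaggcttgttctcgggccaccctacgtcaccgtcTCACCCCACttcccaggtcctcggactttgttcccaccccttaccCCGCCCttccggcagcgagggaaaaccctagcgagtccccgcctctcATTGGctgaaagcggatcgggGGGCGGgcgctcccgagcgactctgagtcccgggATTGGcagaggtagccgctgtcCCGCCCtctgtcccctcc
Idi1: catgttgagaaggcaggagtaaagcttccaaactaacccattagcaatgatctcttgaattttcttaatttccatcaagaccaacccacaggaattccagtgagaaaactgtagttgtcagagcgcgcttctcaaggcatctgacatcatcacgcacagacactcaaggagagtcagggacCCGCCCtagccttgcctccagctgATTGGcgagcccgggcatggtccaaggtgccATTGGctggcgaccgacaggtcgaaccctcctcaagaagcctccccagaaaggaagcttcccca
Idi2: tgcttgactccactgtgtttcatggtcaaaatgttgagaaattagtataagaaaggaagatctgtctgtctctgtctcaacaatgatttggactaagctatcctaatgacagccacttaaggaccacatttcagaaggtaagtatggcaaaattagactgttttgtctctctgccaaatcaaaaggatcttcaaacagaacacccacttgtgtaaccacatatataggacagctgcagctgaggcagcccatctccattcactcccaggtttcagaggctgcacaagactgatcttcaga
The sterol response element was found in the windows of 1 of 12 sterol genes and 0 of 8 fatty acid genes, against 1.24% of all 32851 windows. NF-Y boxes were in those of 11 of 12 sterol genes and 6 of 8 fatty acid genes, against 37.4% of all windows. GC boxes were in those of 11 of 12 sterol and 5 of 8 fatty acid genes (35.7% of all windows), and E-boxes in those of 3 of 12 and 1 of 8 (7.15%). Some genes have more than 1 window, so shares of genes and shares of windows are not on the same base. Idi2 was the sterol gene whose window held none of the 4 motifs, while Idi1, whose window starts 67257 bases away on the same chromosome, held NF-Y boxes and a GC box. A match is a description of the letters in a window and does not show binding. Elements with other letters or outside the windows were not searched, so a missing match does not show that an element is absent.

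At P10 sterol genes that differed were lower in mutant skin, and no fatty acid gene passed the test. Of the 15 sterol genes 5 (33.3%) fell and 0 rose (Idi2, Insig1, Sqle, Nsdhl and Cyp51), and the median log2 difference, mutant minus control, was −0.31. Over all 9045 genes 18.7% passed in either direction, 9.26% lower and 9.39% higher, with a median of −0.01. None of the 10 fatty acid genes rose or fell (median −0.02). In bulk skin, fewer cells of a type and less RNA per cell cannot be told apart.

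Idi2 encodes an isopentenyl diphosphate isomerase, which interconverts the isoprene units used for sterols. Its normalized log2 signal lay between 6.95 and 9.87 (median 8.69) in the 6 P10 controls that shared slides with mutants and between 5.29 and 7.76 (median 6.15) in the 6 mutants. The 2 ranges overlap, but within each slide every mutant lay below every control. The fitted difference was a 4.42-fold fall (log2 −2.15, SE 0.32, limma adjusted p = 5.22e-05), made up of −1.79 on slide 1 and −2.50 on slide 2. A fainter Idi2 probe, detected on 11 arrays, gave −1.61 (adjusted p = 0.00228 over all probes). Control levels depended on the slide, between 6.95 and 7.93 on slide 1 and between 9.44 and 9.87 on slide 2. IDI2 is known in human as a gene of skeletal muscle. The summed signal of 8 muscle markers lay between 12.70 and 15.53 (median 13.17) in these controls and between 14.41 and 15.44 (median 15.10) in the mutants. P10 control 7 had the 15.53, and the other controls lay between 12.70 and 13.78, below all mutants. The part of muscle content in the Idi2 difference was not tested.

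Insig1, the retention factor of the SREBP precursors, lay between 8.72 and 9.14 (median 8.89) in controls and between 7.81 and 8.61 (median 8.22) in mutants. The groups did not overlap. Insig1 fell 1.61-fold (log2 −0.68, SE 0.16, adjusted p = 0.00348). A second probe fell further (−0.91, adjusted p = 0.000343), whereas another, also detected on every array, gave 0.04 (adjusted p = 0.917), so the Insig1 probes disagree. The fall was −0.97 on slide 1 and −0.40 on slide 2, and slide 2 alone did not pass (adjusted p = 0.0726).

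The other 3 falls concerned enzymes between squalene and cholesterol. Sqle, the squalene epoxidase, lay between 11.19 and 11.86 (median 11.77) in controls and between 10.90 and 11.49 (median 11.08) in mutants. The ranges overlap, with all slide 1 mutants below their controls and slide 2 arrays mixed. Its difference of −0.50 (SE 0.13, adjusted p = 0.00787) was −0.84 on slide 1 and −0.16 on slide 2, and it did not pass without the slide term (adjusted p = 0.0807). Nsdhl, which removes the methyl groups at the sterol carbon 4 together with Msmo1, lay between 7.82 and 8.49 (median 8.21) in controls and between 7.55 and 7.79 (median 7.63) in mutants, with no overlap. It fell by 0.55 on the log2 scale (SE 0.14, adjusted p = 0.00869), and its 3 other tested probes gave −0.60 to −0.35. Cyp51, the lanosterol demethylase, lay between 9.47 and 9.87 (median 9.68) in controls and between 9.17 and 9.47 (median 9.33) in mutants. The groups touch without overlapping, and the difference was −0.34 (SE 0.09, adjusted p = 0.013). With arrays scaled to a common median instead of quantile-normalized, Nsdhl (adjusted p = 0.072) and Cyp51 (adjusted p = 0.114) no longer passed.

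The 10 sterol genes that did not pass at P10 ranged from −0.33 for the sterol carrier gene Stard4 (adjusted p = 0.0665) to 0.72 for Idi1 (adjusted p = 0.208), whose 95% interval runs from −0.08 to 1.52. Hmgcs1, which makes the substrate of the rate-limiting reductase, differed by 0.11 (95% interval −0.11 to 0.32). Srebf2 itself differed by 0.33 (adjusted p = 0.16). Among fatty acid genes the differences ran from −0.50 for the elongase gene Elovl6 (adjusted p = 0.0951) to 0.43 for the desaturase gene Scd1 (adjusted p = 0.0762). Without P15 mutant 5, an array that enters the shared spread, Fdps and Scd1 also passed, which brought the P10 counts to 6 sterol and 1 fatty acid genes. On slide 1 alone 8 sterol genes passed and on slide 2 alone 3. Calls over all genes were 3753 and 848 on these slides, and 2201 without P15 mutant 5, against 1687.

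**Figure D1:**
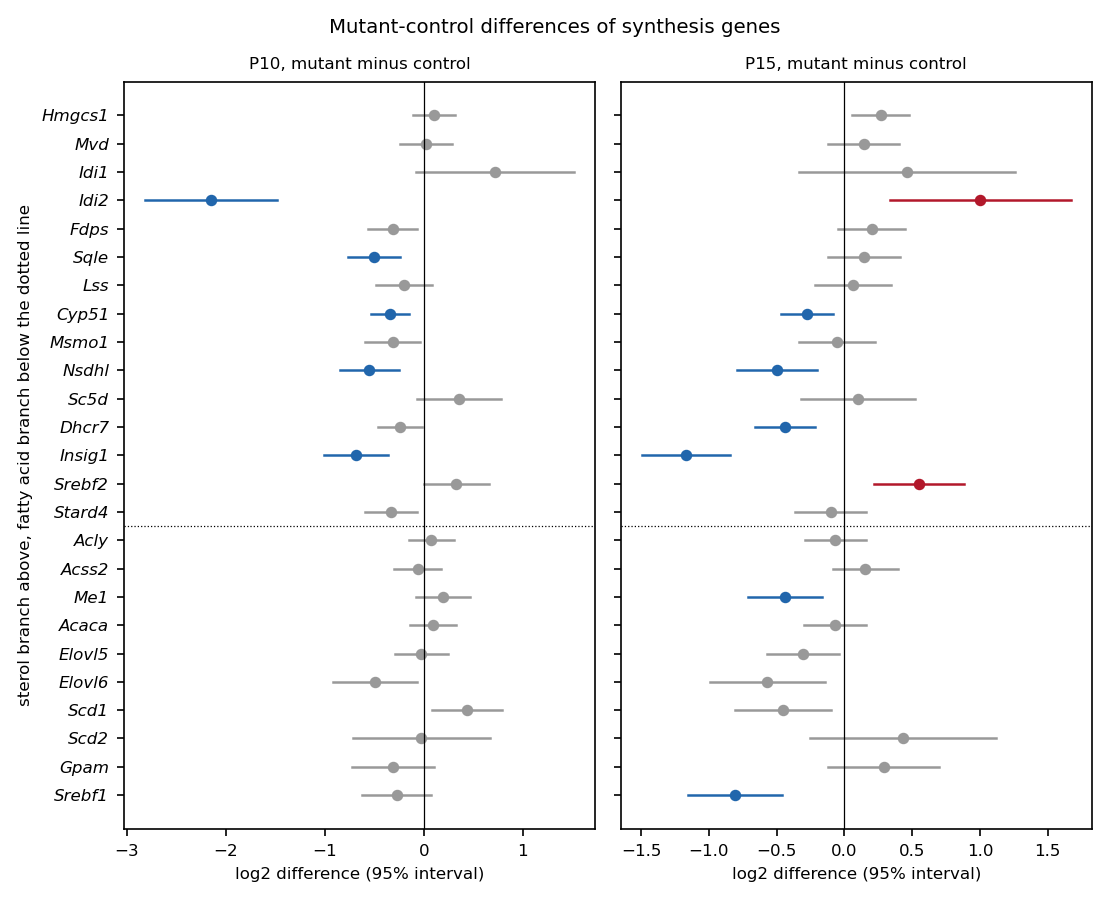
Log2 difference, mutant minus control, of the 25 tested members at P10 (left) and P15 (right), with points for the fitted value, lines for its 95% interval and colour for genes whose adjusted p is below 0.05 (blue lower, red higher, grey not passed). Sterol genes stand above the dotted line and fatty acid genes below it, and the 2 panels have different axes. Idi2 lies at −2.15 on the left and at 1.00 on the right, while Insig1, Nsdhl and Cyp51 are on the lower side in both.

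At P15 sterol genes moved in both directions, and the regulator gene Srebf1 and the malic enzyme gene Me1 fell. Of the 15 sterol genes 4 fell (Insig1, Dhcr7, Nsdhl and Cyp51) and 2 rose (Srebf2 and Idi2), 40% in all, with a median of 0.10. Of the 10 fatty acid genes 2 fell (Srebf1 and Me1) and 0 rose, with a median of −0.19. Over all genes 19.6% passed, 9.53% higher and 10.1% lower, with a median of 0.02, so that the fatty acid share of 20% was that of genes at large. With median scaling the all-gene median was 0.10 and the share of calls on the higher side went from 48.6% to 63.6%. Then 3 sterol genes passed (Idi2, Insig1 and Srebf2), while calls over all genes fell from 1774 to 1262.

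Insig1 lay between 9.41 and 9.74 (median 9.66) in P15 controls and between 7.48 and 8.88 (median 8.59) in P15 mutants. Every mutant lay below every control. Insig1 fell 2.25-fold (log2 −1.17, SE 0.16, adjusted p = 6.36e-06), by 1.33 on slide 3 and 1.01 on slide 4. A second probe gave −1.25 (adjusted p = 3.88e-06) and the probe that had not fallen at P10 gave −0.19 (adjusted p = 0.501). With each array left out in turn the adjusted p stayed between 7.4e-07 and 3.53e-05.

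Srebf1, the gene of SREBP-1, lay between 6.93 and 7.35 (median 7.21) in controls and between 5.55 and 6.87 (median 6.56) in mutants, where it was detected on 4 of 6 arrays. No mutant reached the lowest control. It fell 1.75-fold (log2 −0.81, SE 0.17, adjusted p = 0.00118), and no array left out ended the call. Srebf2, the gene of SREBP-2, went the other way, from between 8.58 and 9.36 (median 9.21) in controls to between 9.26 and 10.28 (median 9.64) in mutants. The groups overlap at the lowest mutants. It rose by 0.55 (SE 0.16, adjusted p = 0.0172), but P15 control 4 was the lowest array at 8.58, and without it the rise did not pass (0.42, adjusted p = 0.0597).

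Dhcr7, which makes cholesterol from its last precursor, lay between 7.36 and 7.97 (median 7.64) in controls and between 6.86 and 7.44 (median 7.26) in mutants. The groups overlap across slides and not within either slide. Its difference was −0.44 (SE 0.11, adjusted p = 0.00477), with −0.70 on slide 3 and −0.18 on slide 4, and it did not pass with median scaling (adjusted p = 0.245). Nsdhl lay between 7.37 and 8.09 (median 7.59) in controls and between 6.62 and 7.52 (median 7.26) in mutants, with an overlap on slide 4. It fell by 0.50 (SE 0.14, adjusted p = 0.0149). That fall ended with median scaling (−0.33, adjusted p = 0.245) or without P15 control 4 (adjusted p = 0.0524), and its other tested probes gave −0.72, −0.30 and 0.22.

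Cyp51 lay between 10.15 and 10.34 in controls and between 9.73 and 10.21 in mutants, with a small overlap and a difference of −0.28 (SE 0.09, adjusted p = 0.0397) that 8 of the 28 arrays, each left out in turn, ended. Idi2 lay between 5.78 and 6.56 (median 6.22) in P15 controls, where it was detected on 1 of 6 arrays, and between 5.73 and 7.84 (median 7.28) in mutants, where it was detected on 5 of 6. All mutants but the lowest, P15 mutant 1, were above all controls. The rise of 1.00 (SE 0.32, adjusted p = 0.0299) was 1.43 on slide 3 and 0.57 on slide 4, and did not pass without the slide term (adjusted p = 0.174) or without any of 6 arrays (4 P15 mutants and P15 controls 4 and 5). Me1, the malic enzyme that supplies NADPH for fatty acid synthesis, lay between 9.45 and 9.94 (median 9.63) in controls and between 8.82 and 9.52 (median 9.25) in mutants. Its groups overlap, and it fell by 0.44 (SE 0.13, adjusted p = 0.0208). A second Me1 probe gave −0.80 (adjusted p = 0.116), and the fall did not pass without P15 mutant 2, P15 mutant 5 or P15 control 3. Without P15 control 4 the P15 sterol count was 2 (Dhcr7 and Insig1), and calls over all genes were 1467, against 1774. Without P15 mutant 5, Cyp51, Idi2 and Me1 no longer passed, and Scd1 (−0.58, adjusted p = 0.0113) and Acss2 did.

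Members that missed the threshold at P15 included Hmgcs1, at 0.27 (adjusted p = 0.0684), Elovl6, at −0.57 (adjusted p = 0.0519), and Scd1, at −0.45 (adjusted p = 0.0629). The 95% interval of Hmgcs1, 0.06 to 0.48, lies above 0, and those of Elovl6 and Scd1 lie below it. Sqle differed by 0.14 (adjusted p = 0.473) with the probe used, but a second Sqle probe, also detected on all 28 arrays, fell by 0.58 (adjusted p = 0.00477). The remaining sterol genes (Mvd, Idi1, Fdps, Lss, Msmo1, Sc5d and Stard4) lay between −0.10 and 0.46, and the remaining fatty acid genes (Acly, Acss2, Acaca, Elovl5, Scd2 and Gpam) between −0.31 and 0.43. Gpam was detected on no P15 array and Idi1 on no P15 control, so their P15 differences are between signals near background.

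**Figure D2:**
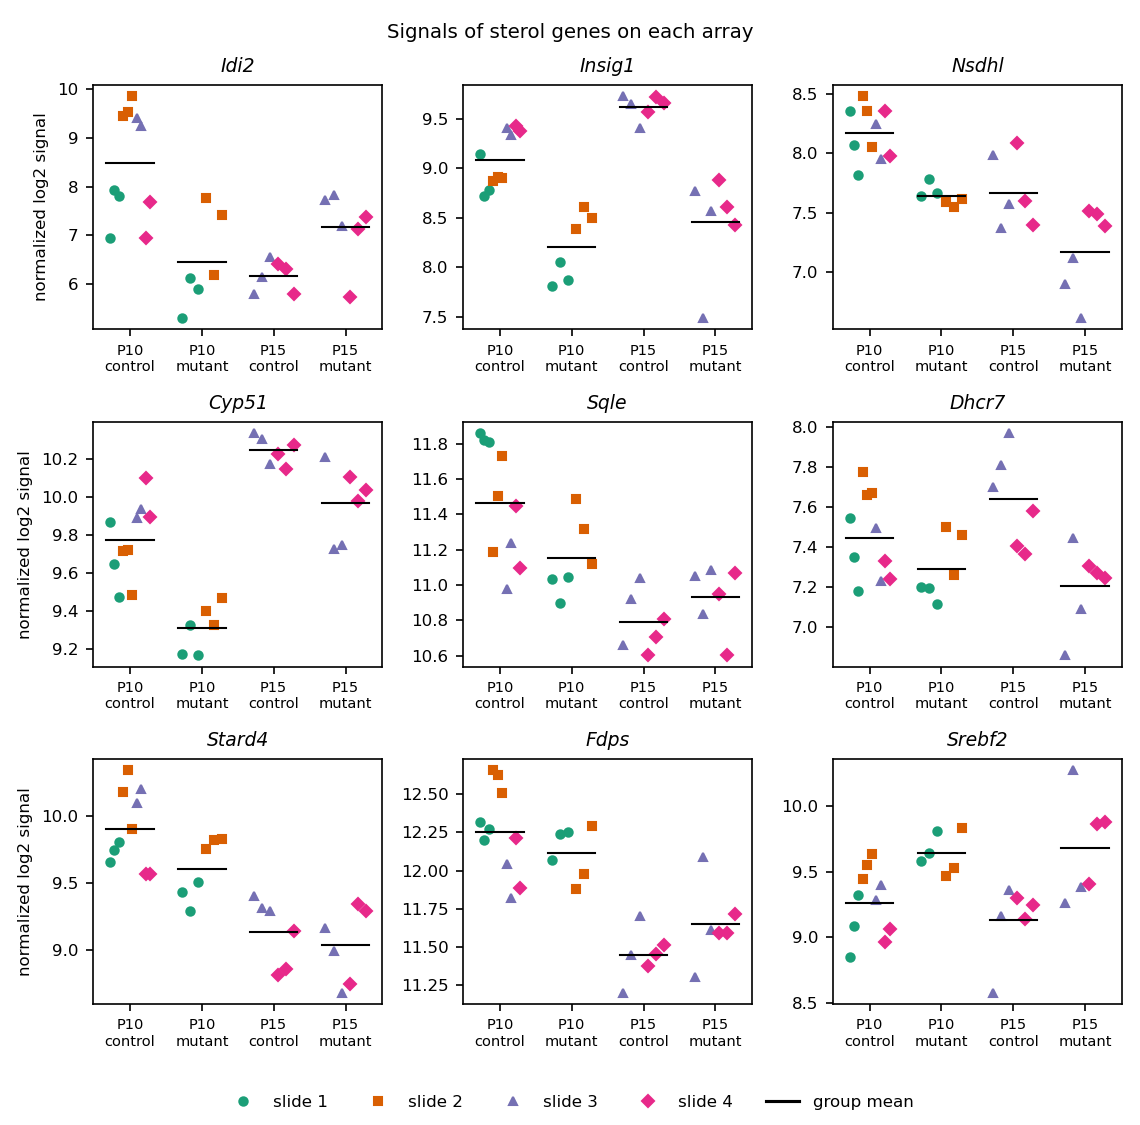
Normalized log2 signal of 9 sterol genes on each of the 28 arrays, by group, with colour and shape for the slide and a black line for the group mean. P10 controls of Idi2 lie between 6.95 and 7.93 on slide 1 and between 9.44 and 9.87 on slide 2, and Insig1 mutants lie below the controls of their slide at both ages.

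**Figure D3:**
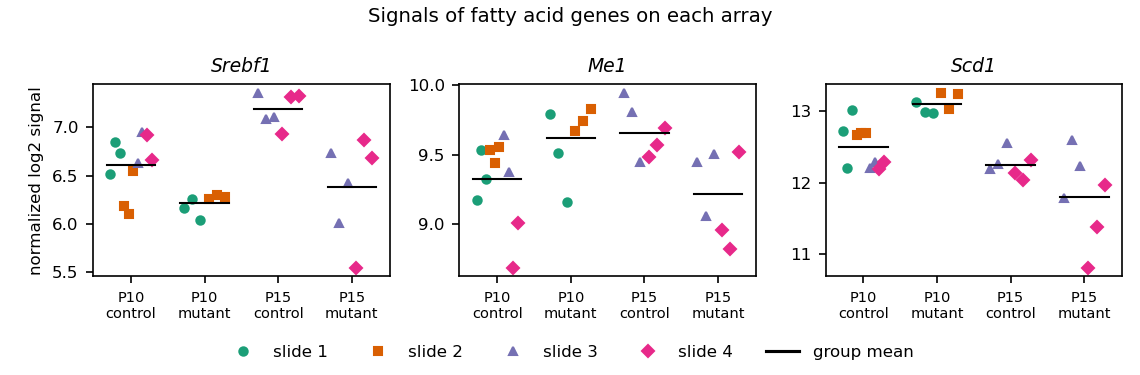
Normalized log2 signal of Srebf1, Me1 and Scd1 on each of the 28 arrays, by group, with colour and shape for the slide and a black line for the group mean. All Srebf1 signals of P15 mutants lie below 6.93, the lowest P15 control, and Scd1 runs from 12.97 to 13.24 in P10 mutants and from 10.82 to 12.59 in P15 mutants.

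The mutant effect itself differed between the ages for 3 members. Over all genes 3.77% passed this test, 1.88% higher and 1.89% lower at P15. Of the sterol genes 2 passed, both higher (median 0.16), and of the fatty acid genes 1, lower (median −0.15). The difference was largest for Idi2, at 3.15 (SE 0.46, adjusted p = 0.000326), from −2.15 at P10 to 1.00 at P15. Its second probe gave 2.65 (adjusted p = 0.00336), and with any 1 array left out the value stayed between 2.90 and 3.37. Scd1, the stearoyl-CoA desaturase of sebaceous gland and fat, lay between 12.20 and 13.01 (median 12.68) in P10 controls of slides 1 and 2 and between 12.97 and 13.24 (median 13.07) in P10 mutants, and between 12.03 and 12.55 (median 12.22) in P15 controls and 10.82 and 12.59 (median 11.87) in P15 mutants. Mutants were thus at the upper side at P10 and mostly at the lower side at P15, with overlap at both ages. The difference was −0.89 (SE 0.24, adjusted p = 0.0366), and leaving out 13 of the 28 arrays, each in turn, ended that call (adjusted p up to 0.0781). Sqle gave 0.64 (SE 0.18, adjusted p = 0.0452), which 20 of 28 arrays left out in turn ended. Its second probe gave −0.05 (adjusted p = 0.93), so the Sqle difference was seen with 1 of 2 probes.

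Insig1 fell at both ages, and the difference between its falls, −0.49 (95% interval −0.94 to −0.03), did not pass (adjusted p = 0.253). For Nsdhl the difference was 0.05 (95% interval −0.36 to 0.47) and for Cyp51 0.06 (−0.21 to 0.34). Srebf1 passed at P15 and not at P10 (−0.27, adjusted p = 0.278), but the difference of −0.53 did not pass (adjusted p = 0.235).

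From P10 to P15 the sterol members that passed in control skin went down. On slides 3 and 4, which hold controls of both ages, 5 of 15 sterol genes fell (Idi2, Stard4, Fdps, Nsdhl and Sqle) and 0 rose, with a median of −0.15. Values above 0 were found for 5 of the 15, among them Sc5d (0.54), Dhcr7 (0.32) and Cyp51 (0.29), and none of these passed. Of the fatty acid genes 1 rose, Me1, and 0 fell, with a median of 0.06. Over all genes 21.8% passed, 11.4% higher and 10.5% lower, with a median of 0.01. These P10 controls are not those of the P10 mutant comparison, but the P15 controls serve in both the P15 comparison and this one.

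Idi2 measured 6.94, 7.69, 9.24 and 9.41 in the 4 P10 controls and at most 6.56 in the 6 P15 controls. No P15 control reached a P10 control. The difference was −2.16 (SE 0.36, adjusted p = 0.000135), with −3.17 on slide 3 and −1.15 on slide 4. Of 8 muscle markers 4 fell over the same ages, with a median of −1.82. So did 4 of 7 adipocyte (−0.52), 4 of 6 fibroblast (−0.83) and 3 of 4 proliferating cell markers (−0.56). The part of these cell types in the Idi2 fall was not tested. Stard4, which carries cholesterol between membranes, lay between 9.57 and 10.20 in P10 controls and between 8.82 and 9.40 in P15 controls, apart from each other. It fell by 0.72 (SE 0.14, adjusted p = 0.000768). Fdps, the farnesyl diphosphate synthase, lay between 11.82 and 12.21 at P10 and between 11.20 and 11.70 at P15, also apart, and fell by 0.54 (SE 0.14, adjusted p = 0.00527). With any 1 array left out these 3 falls passed.

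Nsdhl went from between 7.96 and 8.35 to between 7.37 and 8.09, and Sqle from between 10.98 and 11.45 to between 10.61 and 11.04. Both pairs of ranges overlap. Nsdhl fell by 0.46 (adjusted p = 0.0385) and Sqle by 0.40 (adjusted p = 0.0468), and these calls ended without 6 and 16 of the 28 arrays, each left out in turn. Other probes disagree in size, with −0.16 for the second Sqle probe (adjusted p = 0.521 over all probes) and −0.58, −0.15 and −0.21 for those of Nsdhl (adjusted p = 0.0108, 0.709 and 0.312). Me1 rose by 0.48 (SE 0.15, adjusted p = 0.0223), from between 8.69 and 9.64 to between 9.45 and 9.94. Its ranges overlap, and the rise did not pass without P10 control 1 (adjusted p = 0.12) or P15 control 3 (adjusted p = 0.0504). With median scaling the all-gene median moved to −0.23 and the share of calls on the higher side from 52% to 9.18%. With that scaling the fitted Me1 difference was 0.20 (adjusted p = 0.423) and the fatty acid median −0.19, beside the all-gene median of −0.23.

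In mutant skin the change from P10 to P15 had to be reached through the P10 controls, since no slide holds mutants of both ages. Of the sterol genes 0 passed (median 0.01) and of the fatty acid genes 1 fell, Scd1, by 0.88 (SE 0.26, adjusted p = 0.0256), with a median of −0.13. Over all genes 12.2% passed, 6.11% higher and 6.09% lower, with a median of 0.04, or −0.13 with median scaling, when the share of higher calls went from 50.1% to 15%. The Scd1 call ended without P10 control 1, 2 or 6 (adjusted p up to 0.0547). In the same comparison 7 of 7 adipocyte markers fell (median −1.63) and 6 of 6 fibroblast markers (median −1.79), and their part in the Scd1 fall was not tested. All P10 mutants had more Scd1 signal than all P15 mutants, on different slides. The Idi2 value was 0.99 (95% interval −0.01 to 1.99), against −2.16 in control skin.

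**Figure D4:**
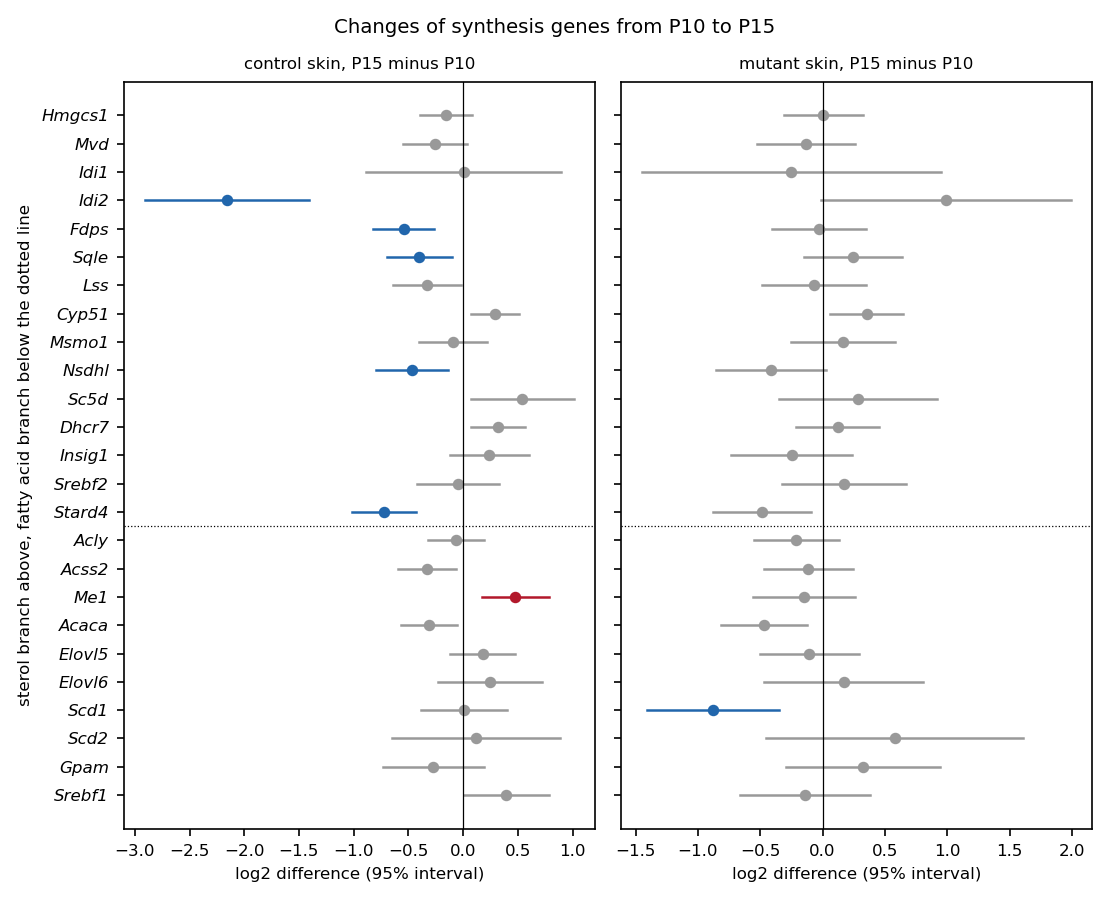
Log2 difference, P15 minus P10, of the 25 tested members in control skin (left) and mutant skin (right), with points for the fitted value, lines for its 95% interval and colour for genes whose adjusted p is below 0.05 (blue lower, red higher, grey not passed). The 2 panels have different axes, and Idi2 lies at −2.16 in control and at 0.99 in mutant skin.

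Of 24 other sterol genes listed beside the members, 12 were tested. At P10 3 rose and 2 fell (41.7%, against 18.7% of all genes), and at P15 1 rose and 1 fell (16.7%, against 19.6%). Insig2, the second retention factor, fell by 0.53 at P10 (SE 0.15, adjusted p = 0.0119) and by 0.61 at P15 (SE 0.15, adjusted p = 0.00357), beside the Insig1 falls. From P10 to P15 in control skin 2 of these 12 genes rose and 1 fell (25%, against 21.8% of all genes), and those that passed were Insig2, Pmvk and Abcg1. Insig2 rose there by 0.82 (adjusted p = 0.000802), as it did in mutant skin (0.74, adjusted p = 0.0273). The 3 rises at P10 were those of Nr1h3, the LXR-alpha receptor for oxysterols (0.56, adjusted p = 0.02), Npc2, which takes cholesterol out of lysosomes (0.40, adjusted p = 0.0288), and Mbtps1, the first protease that cuts SREBPs (0.32, adjusted p = 0.0408). The other fall at P10 was that of Pmvk, a mevalonate pathway kinase (−0.31, adjusted p = 0.0443). At P15 the rise was that of Lbr, a lamin receptor and sterol reductase (0.50, adjusted p = 0.00212). From P10 to P15 in mutant skin 1 rose and 2 fell (25%, against 12.2% of all genes), and those that passed were Insig2, Npc2 and Nr1h3. The mutant effect differed between the ages for Lbr and Nr1h3, 1 higher and 1 lower (16.7%, against 3.77%).

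Of 33 other fatty acid genes 28 were tested, of which 3 rose and 2 fell at P10 and 1 rose and 3 fell at P15. These shares, 17.9% and 14.3%, are below those of all genes, 18.7% and 19.6%, respectively. From P10 to P15 1 rose and 4 fell in control skin (Fads1, Fads2, Fads3, Tecr and Agpat2), 17.9% against 21.8% of all genes. In mutant skin 2 rose and 2 fell (Slc25a1, Fads3, Hacd3 and Agpat2), 14.3% against 12.2%. The mutant effect differed between the ages for Fads1, Fads3 and Agpat2, 2 higher and 1 lower (10.7%, against 3.77%). Fads3, a member of the fatty acid desaturase family, fell by 0.91 at P10 (SE 0.11, adjusted p = 3.26e-06), and its effect differed between the ages by 0.77 (adjusted p = 0.00612). Acsl5, which activates long-chain fatty acids, fell by 0.46 at P10 (adjusted p = 0.00833). Agpat2, an acyltransferase of triglyceride synthesis, rose by 0.44 at P10 (adjusted p = 0.0327) and fell by 0.67 at P15 (adjusted p = 0.00159), a difference of −1.11 (adjusted p = 0.00267). The final acyltransferase genes of triglyceride synthesis also passed, Dgat1 higher at P10 (0.35, adjusted p = 0.016) and Dgat2 lower at P15 (−0.60, adjusted p = 0.0136). Of the remaining calls, Slc25a1 was higher at P10, and at P15 the desaturase gene Fads1 was higher (0.35, adjusted p = 0.00149) and Lpin2 lower.

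Markers of several cell types that make or store these lipids differed between the groups. Of 7 adipocyte markers 5 rose and 0 fell at P10 (median 0.85), 0 rose and 2 fell at P15 (median −0.42), and 5 were lower in the difference between ages (median −1.09). Their summed log2 signal lay between 12.74 and 13.77 in P10 controls of slides 1 and 2, 13.65 and 14.34 in P10 mutants, 12.21 and 12.84 in P15 controls and 11.74 and 12.55 in P15 mutants. Scd1 stood in the same order of group medians as this sum, and a link between them was not tested. Plin1, which coats the adipocyte's lipid droplet, was detected on no P15 array.

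Of 5 sebaceous gland markers 3 fell at P10 (Mc5r, Krt79 and Cidea) and 2 at P15 (Awat2 and Mc5r), with none higher. Their sum lay between 11.75 and 12.34 in P10 controls of slides 1 and 2, 11.50 and 11.73 in P10 mutants, 11.04 and 11.95 in P15 controls and 11.55 and 12.11 in P15 mutants. The P10 mutants were thus all below these controls, while at P15 the ranges overlapped, with medians of 11.94 in mutants and 11.90 in controls. Of 6 keratinocyte markers 0 passed at P10 and 1 fell at P15. Dermal fibroblast markers rose at P10 (5 of 6), as did muscle markers (4 of 8, median 1.60). At P15 0 of 8 muscle markers passed, but all 8 had values above 0 (median 1.02). On slide 3 the summed muscle signals lay between 9.36 and 10.71 in P15 mutants and between 9.24 and 10.83 in P15 controls. Idi2 rose there by 1.43. On slide 4 these sums lay between 12.52 and 14.28 in mutants and reached 13.21 in P15 controls, and Idi2 rose by 0.57. P15 mutant 1 had the sum of 14.28 and the lowest Idi2 signal of the P15 mutants, 5.73. Macrophage markers rose at both ages, 2 of 3 at P10 (median 0.89) and 3 of 3 at P15 (median 1.08), and 4 of 4 markers of proliferating cells rose at P15. The part of these cell types in the sterol and fatty acid differences was not tested.

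**Figure D5:**
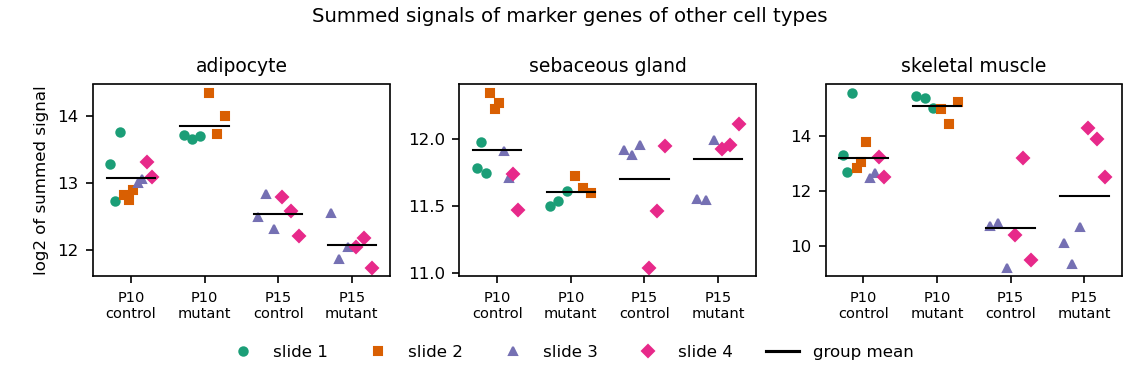
Log2 of the summed normalized signal of adipocyte, sebaceous gland and skeletal muscle markers on each of the 28 arrays, by group, with colour and shape for the slide and a black line for the group mean. P10 mutants run from 13.65 to 14.34 for adipocyte markers and from 11.50 to 11.73 for sebaceous markers, and P10 control 7 has a muscle sum of 15.53.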

How the data were processed

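Total RNA of dorsal skin was labelled with biotin and hybridised to 28 arrays, per the labels. The deposited raw table gives, per the file headers, the signal of 25697 probes on each array with its detection p-value. The signals are linear intensity values that the authors deposited without normalization, judged from array medians between 53.2 and 172. The submitters' processing notes name GenomeStudio without a version, and no source used here states how the authors made their second table. That deposited table holds linear intensity values in the rank order of the raw arrays, 25.6% of them below 0, and served only as an alternative, floored at 16.

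Raw signals were corrected by normexp from the detection p-values (neqc, offset 16), then quantile-normalized and turned into log2 values. Probes with a detection p-value below 0.01 on at least 6 arrays (12834) were kept, and each gene was read from its brightest probe on average, which gave 9045 genes. Of all probes 23978 have 1 symbol in the platform annotation, 0 several and 1719 none, and 23962 were matched by gene ID to RefSeq names. Differences were fitted with limma 3.58.1 in R 4.3.3 on 4 groups and 4 slides (21 residual degrees of freedom) and passed at a Benjamini-Hochberg adjusted p below 0.05 over all genes, or over all probes where another probe of a gene is given. SEs and 95% intervals are on the log2 scale, and the number of arrays limits the precision. No pairing of samples was fitted. Residuals of same-numbered arrays of an age correlated between −0.195 and 0.412, above 0.1 for 3 of 12 pairs. At P10 same-numbered mutants and controls lie on different slides, so this check cannot show whether samples were paired.

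The members, the other lists and the cell markers were chosen with earlier results of these data known. Members that passed in any comparison were named with their values, together with some that did not. Other pathway genes were named where they passed, some of them without values. The fit was tested on simulated data of 9045 genes, 200 of them changed, with noise independent between genes. It recovered 66% of 1.5-fold and 87% of 2-fold changes at P10 and 68% and 94% at P15. For the difference it recovered 27% and 69%, and for the control age change 46% and 82%. False calls were 11 of 164, 8 of 170, 5 of 101 and 4 of 132 in the same order. The real data hold more calls (1687 at P10) and noise that may be shared between genes, so these rates need not hold for them. Alternatives covered scaling, background, the dim-probe filter, the choice of probe, the authors' values, the slide and replicate terms, array weights, single slides and leaving out each array.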

Additional observations from a re-analysis of the deposited data

Results flagged for a closer look

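In 100 groups of arrays of the members, 6 arrays stood apart from the rest of their group by Dixon's criterion, and chance alone marks about 1 group in 20. For Idi2, P15 mutant 1 read 5.73, against 7.12 to 7.84 in the other P15 mutants. P15 mutant 5, the array with the highest raw median and fewest detected probes, stood apart for 3 members. It read 7.48 for Insig1 (others 8.42 to 8.88), 9.32 for Acss2 (others 9.96 to 10.14) and 8.78 for Scd2 (others 6.06 to 6.96). For Srebf2, P15 control 4 read 8.58, against 9.14 to 9.36 in the other P15 controls. For Gpam, P15 control 2 read 5.49, against 4.73 to 5.01, with no array of that group detected.

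The mutant effect differed between P15 and P10, by the interaction term of the limma fit, for 3 members. The difference was 3.15 on the log2 scale for Idi2 (adjusted p = 0.000326), 0.64 for Sqle (adjusted p = 0.0452) and −0.89 for Scd1 (adjusted p = 0.0366). Leaving out 20 of the 28 arrays, each in turn, ended the Sqle call, and 13 ended that of Scd1. The second Sqle probe gave −0.05 (limma adjusted p = 0.93 over all probes).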

How the results depend on the processing

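Each of 13 other settings and 28 fits without 1 array was run, which gave 4775 values for single genes. Of these 4526 kept their side of the threshold and, where passed, their direction, 136 lost and 111 gained a call, and 2 turned, both without the slide term in the mutant age change: Msmo1 to −0.55 (adjusted p = 0.0194) and Acss2 to 0.35 (adjusted p = 0.0456). The cause was not tested. For sterol genes at P10 (5 passed) the count was 12 with array weights, 8 on slide 1 and 3 on slide 2; for fatty acid genes (0) it was 1 with median scaling, without the slide term, with slide as a random block and on slide 2, 4 with weights and 3 on slide 1. At P15 the sterol count (6) was 3 with median scaling and 1 on slide 3 and on slide 4. The fatty acid count (2) was 4 without background correction, 1 without the slide term and 0 on either slide. Calls over all genes at P15 fell too, from 1774 to 1262 with median scaling and 1250 without the slide term. They were 230 on slide 3, 508 on slide 4 and 1852 without background correction. For the difference the sterol count (2) was 1 without the dim-probe filter, with the mean of a gene's probes, without the slide term and with slide as a random block. Its fatty acid count (1) was 0 with median scaling and without the filter, and 2 without background correction, with the random block and with weights. Calls over all genes for the difference went from 341 to 207 with median scaling and without the slide term, and to 1389 with weights. They were 311 without the filter, 364 with the mean of a gene's probes, 344 with the random block and 370 without background correction. For the control age change the sterol count (5) was 9 without the slide term, 1 on slide 3 and 0 on slide 4, and the fatty acid count (1) was 2 with median scaling and with weights, 4 without the slide term, 3 with the random block and 0 on either slide. For the mutant age change the sterol count (0) was 5 without the slide term and 2 with the random block, and the fatty acid count (1) was 5 and 2, and 2 with weights, while calls over all genes went from 1104 to 4086 without the slide term and to 2247 with the random block. In the control age change they went from 1976 to 3642 and 2844, and to 240 on slide 3 and 574 on slide 4. With median scaling they were 2223 in the control age change, and with weights 2058 there and 2257 in the mutant age change.

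With 1 array left out the sterol and fatty acid counts ran from 5 to 6 and 0 to 1 at P10, 2 to 6 and 1 to 4 at P15, 1 to 2 and 0 to 2 for the difference, 3 to 7 and 0 to 2 for the control age change, and 0 to 1 and 0 to 2 for the mutant age change. Calls over all genes then ran from 1049 to 2201, 1448 to 1830, 214 to 580, 1496 to 2487 and 763 to 1687 in the same order. The P15 fatty acid count was 4 without P15 mutant 3 and 1 without P15 mutant 2 or P15 control 3, and the control age sterol count was 3 without P15 control 3, P15 control 5 or P10 control 4. The replicate number, which is not known to pair the samples, was also used as a block (correlation 0.0103). The sterol counts were then 5, 6, 2, 5 and 0 in the same order and the fatty acid counts 0, 3, 1, 1 and 1. Calls over all genes with this block were 1692, 1806, 345, 1972 and 1087. Over all genes, 4301 passed at P10 with weights, 3753 on slide 1 and 848 on slide 2, against 1687. P10 calls were 1682 with median scaling, 2209 without the slide term and 2068 with slide as a random block. Genes near background, such as Idi1 and Gpam, can show differences only above the signal of the negative controls.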
